A study of Mus musculus with 9 samples.

Results

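Smooth muscle and contractile genes were followed in Cxcl12-expressing stromal cells sorted from mouse liver before and after birth. The set held 10 genes (Acta2, Actg2, Myh11, Myl9, Tpm1, Tpm2, Cnn1, Tagln, Lmod1 and Des), a fixed list of gene symbols, out of 19938 genes measured. All 10 were on the arrays, each with 1 probe set, and no member shared its probe set with another gene symbol in the array annotation. The cells came from livers at the embryonic stage E15.5 and from postnatal days 5 (P5) and 10 (P10), with 3 arrays per stage. All mice were of C57BL/6 background and of the genotype Cxcl12DsRed/+, in which a red fluorescent protein, DsRed, reports 1 Cxcl12 allele. Cells were sorted as DsRed+ and as negative for CD45 and Ter119, surface proteins of blood cells. All 3 stages thus share the reporter allele and the gate, and no cells outside the gate were measured. The labels number the 3 arrays of a stage without saying whether each is 1 animal or a pool, so every p-value refers to the spread between arrays, part of which may be technical.

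Smooth muscle cells contract when myosin pulls on actin filaments. Acta2 and Actg2 encode the actins typical of vascular and of enteric smooth muscle, Myh11 the smooth muscle myosin heavy chain and Myl9 a regulatory light chain whose phosphorylation switches the motor on. Tropomyosins (Tpm1, Tpm2) lie along the actin filament, calponin (Cnn1) and transgelin (Tagln) bind and stabilise it, leiomodin (Lmod1) nucleates it, and desmin (Des) is the intermediate filament protein that links the contractile apparatus. In the liver, Des is a classical marker of the resting stellate cell in rodents, the pericyte of the sinusoid, and Acta2 is best known for its rise when stellate cells turn into myofibroblasts in fibrosis. Many of these genes are targets of serum response factor (SRF) and its partners, the myocardin-related factors.

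Across arrays of 1 stage, Pearson r over genes was 0.986 to 0.995, and between stages it was 0.875 to 0.985. The P5 arrays differed in endothelial markers: all 10 measured had their lowest P5 signal on array 1, and their median signal was 6.60 on array 1, 6.94 on array 2 and 7.33 on array 3. Ptprc, which encodes CD45, lay between 4.97 and 5.20 and under percentile 30 of every array. Other genes of the blood cell list were not all dim. Slc4a1 lay between 6.81 and 9.06, above the median of genes on all 9 arrays, and Pf4 between 5.22 and 9.18. Cxcl12, the gene of the gate, had log2 signals of 10.68 to 11.31 in E15.5 cells, 9.95 to 10.31 in P5 cells and 10.01 to 10.31 in P10 cells. The labels name no batch, and any batch confounded with stage cannot be told apart from stage.

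The contractile genes were lower after birth. At P10, 7 of the 10 genes had fallen relative to E15.5 (limma, adjusted p under 0.05 over all genes), against 18.6% of all genes called lower. None rose: 0 were called higher, against 20.1% of all genes, and limma called 0 higher at an unadjusted p under 0.05 too. At P5, 5 had fallen relative to E15.5 (17.7% of all genes) and 0 had risen (17.9%), and at P10 relative to P5, 2 had fallen (2.89%) and 0 had risen (2.76%). All arrays of the later stage lay below all arrays of the earlier one for 8 of the 10 genes at P10 against E15.5 (23.8% of all genes), for 5 at P5 against E15.5 (21.1%) and for 7 at P10 against P5 (9.66%). The 3 comparisons share arrays with each other, so their counts are not independent. The 10 genes were chosen with earlier results of these data known. The shares of all genes are therefore a background and not a test of the set. The median log2 difference of the 10 genes was -0.95 at P5 against E15.5, -1.997 at P10 against E15.5 and -0.67 at P10 against P5, beside medians of 0.02 at P10 against E15.5 and 0.00 at P10 against P5 over all genes. The summed linear signal of the 10 probe sets was 11600 to 13200 on E15.5 arrays, 4180 to 6170 on P5 arrays and 2380 to 3340 on P10 arrays. Myl9, Tpm1 and Acta2 (mean log2 signals of 11.77, 11.51 and 11.45 at E15.5) weigh most in this sum. Cnn1 (6.27) and Lmod1 (6.34) weigh little. In bulk RNA from sorted cells, a smaller share of contractile cells and less of each RNA per cell cannot be told apart. The genes that fell at P10 relative to E15.5 were Acta2, Actg2, Tagln, Myl9, Tpm1, Tpm2 and Des. Myh11, Cnn1 and Lmod1 did not pass in any comparison, and Myh11 missed narrowly.

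**Figure D1:**
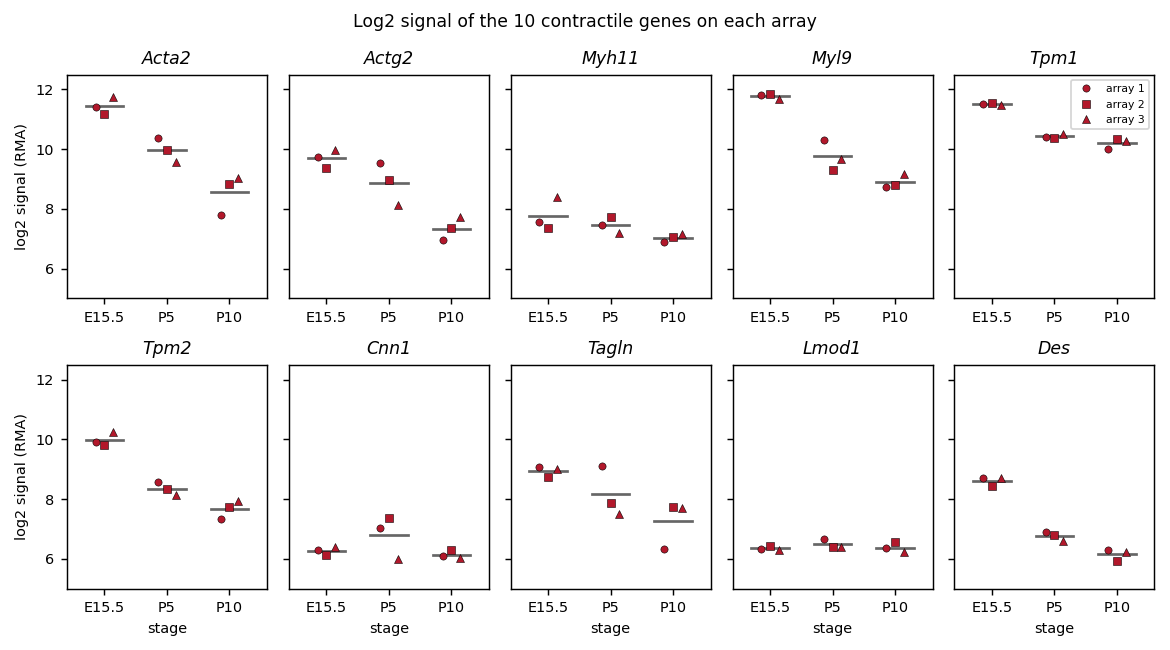
Log2 signal (RMA, y axis) of each contractile gene on each array at E15.5, P5 and P10 (x axis), where points are arrays 1 to 3 of a stage and grey bars are stage means. Acta2 lay between 11.18 and 11.75 at E15.5 and between 7.78 and 9.05 at P10, while Lmod1 stayed between 6.21 and 6.66 on all 9 arrays. Signals of different probe sets are not comparable as levels.

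Promoter sequence was set beside these changes because SRF is the classical regulator of the list. RefSeq windows of 300 bases around the transcription start (GRCm38.p6) were available for 7 of the 10 genes. Actg2, Myh11 and Tagln had none, so nothing is said here of their promoters. They were searched for the CArG box, the element bound by SRF, whose ends read the same on both strands. The exact CArG box was found in 1 of these 7 genes (Myl9) and in 1.63% of 15614 genes with a window. A looser form with at most 1 mismatch among the central bases, which includes the exact one, was found in 2 of 7 (Acta2 and Myl9) and in 10.7% of genes. CATTCC, the element of TEAD factors, searched on both strands, was found in 3 of 7 (Acta2, Tpm1 and Lmod1) and in 15.1% of genes, and none of these sites overlapped a CArG match. The windows of Acta2 (chr19:34255324-34255623, minus strand) and Myl9 (chr2:156775214-156775513, plus strand), the pair with the largest differences at P10, are printed with CArG matches in capitals. Those of Des (chr1:75360042-75360341, plus strand), which also fell, and Cnn1 (chr9:22099003-22099302, plus strand), which was not called, are printed beside them and hold no match.
Acta2: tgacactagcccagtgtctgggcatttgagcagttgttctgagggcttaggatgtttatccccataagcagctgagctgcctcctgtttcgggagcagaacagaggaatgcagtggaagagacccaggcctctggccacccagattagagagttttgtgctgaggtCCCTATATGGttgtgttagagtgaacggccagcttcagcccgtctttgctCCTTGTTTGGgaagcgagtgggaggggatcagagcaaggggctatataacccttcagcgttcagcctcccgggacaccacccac
Myl9: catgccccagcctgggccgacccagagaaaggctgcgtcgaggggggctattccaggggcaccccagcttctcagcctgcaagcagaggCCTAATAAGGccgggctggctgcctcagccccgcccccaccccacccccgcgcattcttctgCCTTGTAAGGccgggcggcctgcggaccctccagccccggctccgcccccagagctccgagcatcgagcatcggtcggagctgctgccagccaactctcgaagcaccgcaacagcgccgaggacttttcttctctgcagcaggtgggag
Des: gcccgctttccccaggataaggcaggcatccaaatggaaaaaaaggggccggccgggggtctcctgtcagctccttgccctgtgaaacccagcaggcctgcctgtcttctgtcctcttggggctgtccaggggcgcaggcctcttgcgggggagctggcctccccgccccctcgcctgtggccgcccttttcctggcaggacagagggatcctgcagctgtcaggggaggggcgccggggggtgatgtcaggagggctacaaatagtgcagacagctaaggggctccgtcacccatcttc
Cnn1: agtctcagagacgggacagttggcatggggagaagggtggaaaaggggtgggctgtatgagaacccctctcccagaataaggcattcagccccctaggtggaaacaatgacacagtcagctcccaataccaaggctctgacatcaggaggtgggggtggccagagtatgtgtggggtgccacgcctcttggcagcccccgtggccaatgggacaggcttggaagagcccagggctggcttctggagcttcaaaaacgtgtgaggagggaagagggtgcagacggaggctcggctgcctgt
In Acta2 the matches CCCTATATGG and CCTTGTTTGG begin at positions -84 and -34 relative to the transcription start, and both carry 1 mismatch. In Myl9 the exact box CCTAATAAGG begins at -161 and the mismatched CCTTGTAAGG at -99. A match is a string of letters, not evidence of binding, and windows without one may hold such elements elsewhere.

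Among the actins, Acta2 fell at P5 and at P10 relative to E15.5, and Actg2 fell at P10 relative to both earlier stages. The difference between these genes was not tested. Acta2 had log2 signals of 11.41, 11.18 and 11.75 at E15.5, 10.38, 9.99 and 9.57 at P5 and 7.78, 8.82 and 9.05 at P10. No 2 stages overlapped. Acta2 fell by 2.90 ± 0.34 on the log2 scale at P10 relative to E15.5 (SE, n = 3 arrays per stage, 7.46-fold lower, adjusted p = 0.000178), and fell by 1.47 ± 0.34 at P5 relative to E15.5 (2.77-fold lower, adjusted p = 0.00963). At P10 against P5 it differed by -1.43 ± 0.34, which missed the threshold (adjusted p = 0.0506) although all P10 arrays lay below all P5 arrays. With only array 1 kept at P5, a setting added once the values were known in which that array is assumed to vary like those of the other stages, the P5 difference from E15.5 was -1.07 and was not called (adjusted p = 0.164).

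Actg2, the actin of visceral smooth muscle, had 9.75, 9.38 and 9.98 at E15.5, 9.52, 8.97 and 8.14 at P5 and 6.96, 7.34 and 7.71 at P10. The P5 arrays spread over more than 1 log2 unit and reached into the E15.5 range, and the P10 arrays lay below all others. Actg2 fell by 2.37 ± 0.34 at P10 relative to E15.5 (5.15-fold, adjusted p = 0.000627) and fell by 1.54 ± 0.34 relative to P5 (2.91-fold, adjusted p = 0.0397). At P5 against E15.5 the difference of -0.82 ± 0.34 did not pass (adjusted p = 0.101), and it was -1.15 without P5 array 1 (adjusted p = 0.0261) but -0.45 without P5 array 3 (adjusted p = 0.245). The call at P10 against P5 was lost on omission of any single array except P5 array 3 (adjusted p 0.056 to 0.119).

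Of the myosin subunits on the list, Myl9 fell and Myh11 was lower without passing the test. Myl9, the regulatory light chain, had 11.80, 11.85 and 11.68 at E15.5, 10.31, 9.30 and 9.68 at P5 and 8.73, 8.81 and 9.16 at P10. Each stage lay wholly below the one before it. Myl9 fell by 2.88 ± 0.23 at P10 relative to E15.5 (7.34-fold, adjusted p = 1.78e-05) and fell by 2.01 ± 0.23 at P5 (4.02-fold, adjusted p = 0.000203). At P10 against P5 it differed by -0.87 ± 0.23 (adjusted p = 0.0733). Myh11, the heavy chain of the smooth muscle motor, had 7.55, 7.34 and 8.41 at E15.5, 7.46, 7.72 and 7.20 at P5 and 6.90, 7.04 and 7.15 at P10. E15.5 array 3 was the high value, and the P10 arrays lay below all arrays of both earlier stages. Myh11 differed by -0.74 ± 0.26 at P10 against E15.5 and missed the threshold (95% interval -1.33 to -0.14, adjusted p = 0.0555). It was called without E15.5 array 2 (-0.95, adjusted p = 0.025), while without E15.5 array 3, the high one, the difference was -0.41 (adjusted p = 0.0895). With the difference unchanged, limma also called Myh11 after a filter at percentile 30 (adjusted p = 0.0353) and with another variance model (adjusted p = 0.0407).

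Both tropomyosin genes of the list fell. Tpm1 had 11.50, 11.55 and 11.48 at E15.5, 10.42, 10.38 and 10.51 at P5 and 10.004, 10.34 and 10.26 at P10. Tpm2 had 9.92, 9.80 and 10.24 at E15.5, 8.58, 8.33 and 8.14 at P5 and 7.34, 7.74 and 7.94 at P10. In both genes each stage lay wholly below the one before it. Tpm1 fell by 1.31 ± 0.088 at P10 relative to E15.5 (2.48-fold, adjusted p = 6.2e-06) and fell by 1.07 ± 0.088 at P5 (adjusted p = 2.86e-05). Tpm2 fell by 2.31 ± 0.18 at P10 relative to E15.5 (4.97-fold, adjusted p = 1.59e-05) and fell by 1.63 ± 0.18 at P5 (adjusted p = 0.000171). Neither passed at P10 against P5, where Tpm1 differed by -0.24 ± 0.088 (adjusted p = 0.19) and Tpm2 by -0.68 ± 0.18 (adjusted p = 0.0754).

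Of the actin-binding genes Tagln, Cnn1 and Lmod1, only Tagln was called, at P10 against E15.5. Tagln had 9.06, 8.74 and 9.02 at E15.5, 9.10, 7.87 and 7.49 at P5 and 6.34, 7.72 and 7.71 at P10. P5 array 1 lay above every E15.5 array, and P10 array 1 was more than 1 log2 unit below the other P10 arrays. Tagln fell by 1.68 ± 0.47 at P10 relative to E15.5 (3.21-fold, adjusted p = 0.0215), and the call was lost without E15.5 array 1 (-1.62, adjusted p = 0.0665), E15.5 array 3 (-1.64, adjusted p = 0.064) or P10 array 1 (-1.22, adjusted p = 0.0593). Its P5 difference from E15.5 was -0.79 ± 0.47 (adjusted p = 0.248), with -1.26 without P5 array 1 (adjusted p = 0.0502) and -0.46 without P5 array 3 (adjusted p = 0.527).

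Cnn1, a calponin used as a marker of mature smooth muscle, had 6.29, 6.12 and 6.39 at E15.5, 7.03, 7.36 and 5.98 at P5 and 6.07, 6.30 and 6.01 at P10. P5 arrays 1 and 2 were higher than all other arrays and P5 array 3 was the lowest of the 9. At P5 against E15.5 Cnn1 differed by 0.52 ± 0.30 (adjusted p = 0.233), and it was called higher without P5 array 3 (0.93 ± 0.14, adjusted p = 0.00151) but was 0.24 without P5 array 2 (adjusted p = 0.579). Without P5 array 3 it was also called lower at P10 than at P5 (-1.07, adjusted p = 0.00694), where all 9 arrays gave -0.66 ± 0.30 (adjusted p = 0.305) and the omission of P5 array 2 gave -0.38 (adjusted p = 0.623). Lmod1, which nucleates actin filaments in smooth muscle, lay between 6.29 and 6.42 at E15.5, 6.40 and 6.66 at P5 and 6.21 and 6.55 at P10, under the median of genes on all 9 arrays. Its difference at P10 against E15.5 was 0.03 ± 0.105 (95% interval -0.21 to 0.27, adjusted p = 0.876).

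Des, the desmin gene, fell in all 3 comparisons. It had 8.72, 8.42 and 8.70 at E15.5, 6.90, 6.79 and 6.59 at P5 and 6.29, 5.92 and 6.23 at P10, so no 2 stages overlapped. Des fell by 2.47 ± 0.13 at P10 relative to E15.5 (5.52-fold, adjusted p = 1.5e-06) and fell by 0.61 ± 0.13 relative to P5 (1.53-fold, adjusted p = 0.0331). The call at P10 against P5 was lost without E15.5 array 1, P5 array 1, P5 array 2, P10 array 2 or P10 array 3 (adjusted p from 0.0543 to 0.0961). The other genes of the stellate cell list moved the same way. Of 14 measured without Des, 13 fell at P10 relative to E15.5 (median -2.38), against 18.6% of all genes. At P5, 13 of 14 fell (median -2.29), against 17.7% of all genes. The summed signal of these 14 was 17600 to 20800 at E15.5, 3700 to 4600 at P5 and 2990 to 3510 at P10. Their part in the differences of the contractile genes was not tested.

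**Figure D2:**
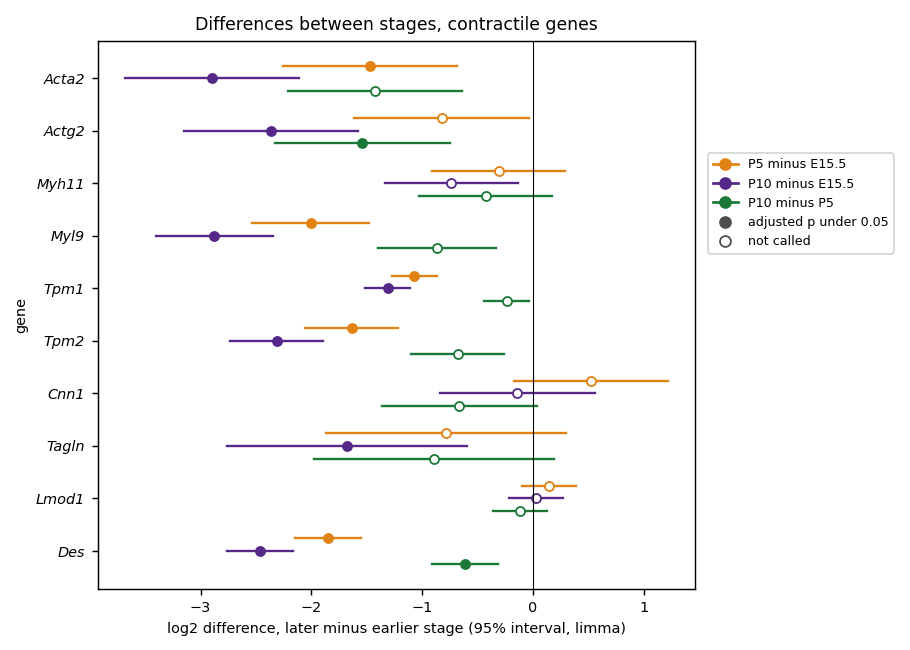
Log2 difference between stages for each contractile gene (x axis, later minus earlier stage, point and 95% interval from limma), with 1 colour per comparison and filled points for an adjusted p under 0.05. At P10 against E15.5, 7 genes are called lower, from -2.90 (Acta2) to -1.31 (Tpm1), and the intervals of Cnn1 and Lmod1 span 0.

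For Des and Tpm1 the first step was larger than the second. The change from P5 to P10 was set against the change from E15.5 to P5 in 1 contrast of the same fit, which was added after the values were seen and which called 7.93% of all genes with a second step above the first. Des (1.24 ± 0.225, adjusted p = 0.00692) and Tpm1 (0.83 ± 0.15, adjusted p = 0.00718) passed. For Des 75.2% of the log2 difference between E15.5 and P10 was present by P5, and for Tpm1 81.8%. The same share was 70.6% for Tpm2 and 69.8% for Myl9, whose contrasts did not pass (adjusted p = 0.0788 and 0.0948), and 50.7% for Acta2 (0.04 ± 0.59, adjusted p = 0.975). For Tagln it was 46.8% (-0.11 ± 0.82, adjusted p = 0.954) and for Actg2 34.9% (-0.72 ± 0.60, adjusted p = 0.501). No gene was tested against another. The Des probe set was dim at P10 (5.92 to 6.29) and lay under the median of genes on 4 of 9 arrays. How far this limited its second step was not tested. The steps span different numbers of days and share the P5 arrays, so the contrast compares steps and not rates.

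Arrays of 1 stage also differed in the contractile genes. On P5 array 1, 7 of the 10 genes had their highest P5 signal, as did 41.4% of all genes, with a median deviation of 0.24 from the stage mean. On P5 array 3, 8 had their lowest (-0.24), as did 42.0% of all genes. Endothelial markers ran the other way there, with median deviations of -0.82 on P5 array 1 and 0.73 on P5 array 3, and stellate cell markers had 0.16 and -0.11. On P10 array 1, 7 of the 10 genes had their lowest P10 signal (-0.18, 33.1% of all genes), with endothelial markers at -0.17 and stellate cell markers at -0.09. On E15.5 array 2, 7 of the 10 had their lowest E15.5 signal (-0.19, 34.7% of all genes). The part of other cell types in these deviations was not tested. With only array 1 kept at P5, the differences of the 10 genes from E15.5 ran from -1.72 (Des) to 0.76 (Cnn1). Lmod1 (0.32) and Tagln (0.16) were above 0 there too. The comparison of P10 with E15.5 does not use the P5 arrays, other than for its error.

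**Figure D3:**
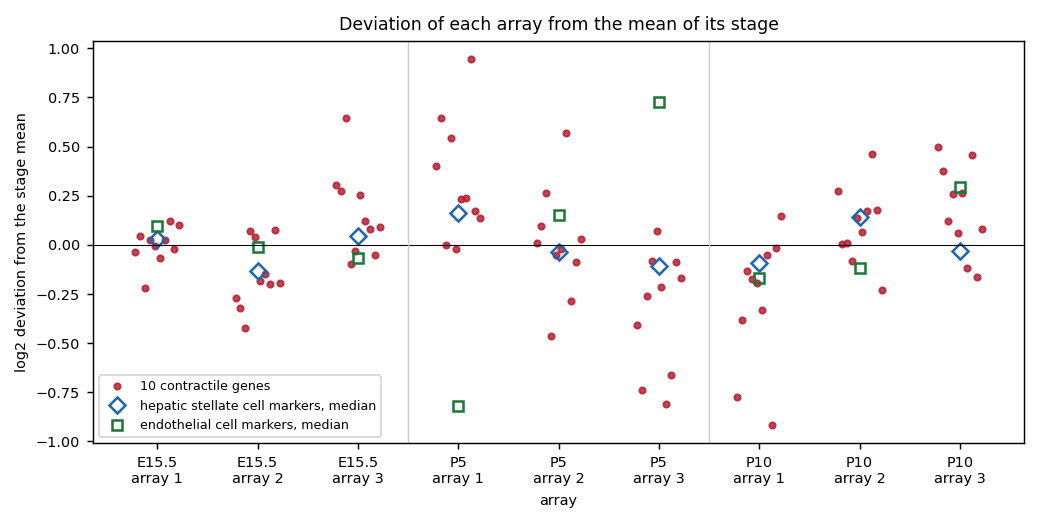
Log2 deviation of each array (x axis) from the mean of its stage (y axis), with red points for the 10 contractile genes and open symbols for the medians of the stellate and endothelial marker lists. On P5 array 1 most contractile genes lie above 0 while the endothelial median is -0.82, and on P5 array 3 most lie below 0 while it is 0.73.

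Related genes of the same families were set beside the members after their values were seen. Of the actins measured, Acta2 and Actg2 fell at P10 relative to E15.5, whereas cytoplasmic Actb (-0.10 ± 0.072, adjusted p = 0.349), skeletal Acta1 (0.08 ± 0.13, adjusted p = 0.704) and cardiac Actc1 (-0.47 ± 0.22, adjusted p = 0.133) did not pass. Actb lay between 12.96 and 13.20, above percentile 99 of genes on every array. Acta2 and Actg2 encode nearly identical proteins, and how far each probe set also reads the RNA of the other was not tested. Among tropomyosins, Tpm4 (-1.97 ± 0.11) fell with Tpm1 and Tpm2, and Tpm3 fell by 0.34 ± 0.076. Of the calponins, the non-muscle gene Cnn2 fell by 3.53 ± 0.18 (adjusted p = 1.1e-06), on a probe set that lay under percentile 30 on 1 of 9 arrays, while Cnn3 (0.15 ± 0.058, adjusted p = 0.0748) was not called. Tagln2 fell by 0.80 ± 0.086 and Tagln3 did not pass (-0.04 ± 0.10). Lmod3, a leiomodin gene under the median of genes on all 9 arrays, rose (0.32 ± 0.066, adjusted p = 0.00502). The non-muscle myosin heavy chains Myh10 (-3.34 ± 0.17, adjusted p = 1.28e-06) and Myh9 (-1.55 ± 0.14) fell, and Myh14 rose (0.38 ± 0.12, adjusted p = 0.0355). The broadly used light chains Myl12a, Myl12b and Myl6 fell by 0.42, 0.34 and 0.18. Vim, the intermediate filament of mesenchymal cells, fell by 2.83 ± 0.13, and Nes, for nestin, was also called lower, on a probe set that lay under percentile 30 on 6 of 9 arrays. Of the 12 genes of intermediate filaments and the dystrophin complex, 9 fell and 3 did not pass (median -1.27), among them Cryab (-1.81 ± 0.089), a small heat shock protein gene, and Sspn (-1.30 ± 0.069), for sarcospan.

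**Figure D4:**
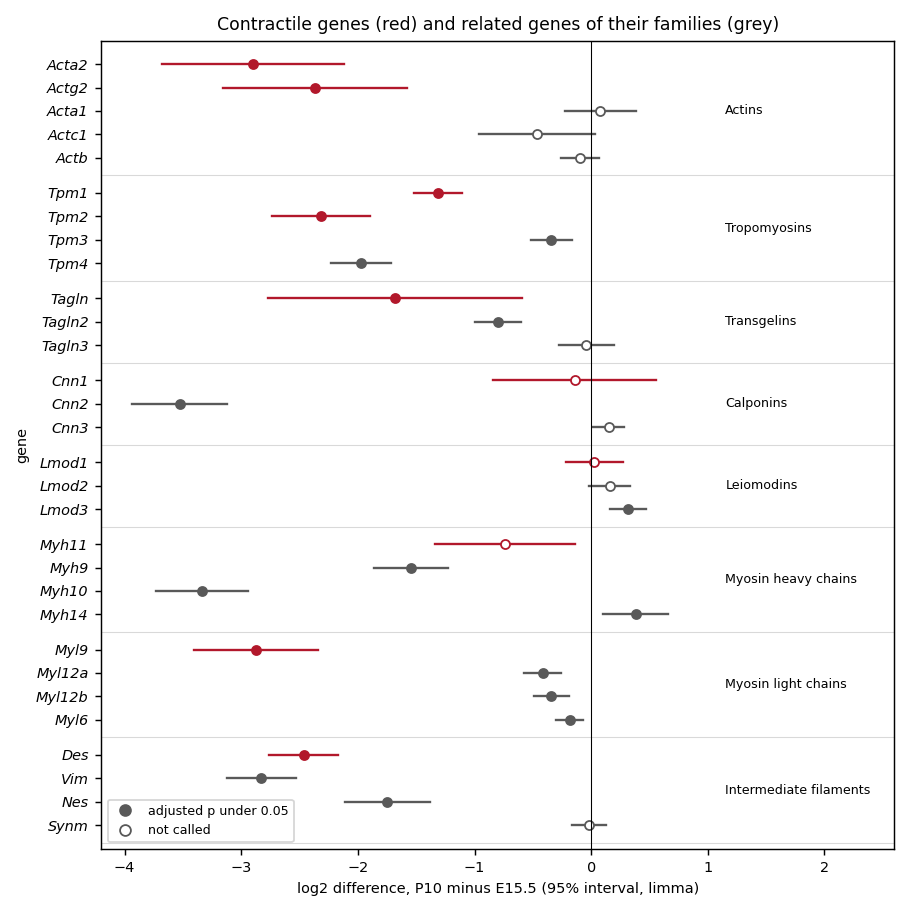
Log2 difference at P10 against E15.5 (x axis, point and 95% interval from limma) for the contractile genes in red and related genes of their families in grey, with filled points for an adjusted p under 0.05. Cnn2 (-3.53) and Myh10 (-3.34) lie further from 0 than any contractile gene of the list, while Actb, Acta1, Cnn3 and Synm are not called.

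Genes that control contraction are read against the 18.6% of all genes called lower and 20.1% called higher at P10 relative to E15.5. In the list of SRF, myocardin and related factors, 10 of 15 measured genes fell at P10 relative to E15.5 and 5 did not pass (median -0.49). Gata6 (-1.99 ± 0.079), Mef2c (-2.05 ± 0.087) and the LIM protein gene Fhl2 (-2.08 ± 0.20) had the smallest adjusted p. Srf itself fell by 0.34 ± 0.091 (adjusted p = 0.0186) and its cofactor Mrtfa by 0.40 ± 0.074 (adjusted p = 0.00252), while Mrtfb did not pass (0.10 ± 0.077, adjusted p = 0.389). Srf, Mrtfa and Mrtfb were named for their role and not by rank. Myocd, the myocardin gene, lay between 5.01 and 5.22, under percentile 30 of every array. Csrp2, a LIM protein gene of smooth muscle, rose at P10 relative to P5 (0.61 ± 0.11, adjusted p = 0.0203) as its paralog Csrp1 fell (-0.65 ± 0.15, adjusted p = 0.0388).

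In the list of contraction control, 6 of 15 measured genes fell at P10 relative to E15.5 and 9 did not pass. The cGMP-dependent kinase gene Prkg1 (-3.295 ± 0.25), which relaxes smooth muscle and whose probe set lay under percentile 30 on 4 arrays, and Atp2a2 (-2.15 ± 0.22), a calcium pump of the endoplasmic reticulum, were among them, with Ppp1r12a (-1.14 ± 0.18), a subunit of myosin phosphatase. In the myosin list, 8 of 10 fell and 2 rose, with the kinase gene Mylk3 at -1.73 ± 0.125, the atrial light chain gene Myl7 at -1.62 ± 0.145 and its relative Myl4, which rose, at 0.77 ± 0.18. Of 27 genes of dense bodies and focal adhesions, 17 fell, 3 rose and 7 did not pass (median -0.93). Flna (-3.465 ± 0.11), which crosslinks actin, and the integrin gene Itga8 (-2.74 ± 0.093) fell, and Sorbs2 (3.24 ± 0.098), Pxn (0.76 ± 0.15) and Palld (0.50 ± 0.15) rose. Of 13 receptors for contractile agonists, 7 fell and 2 rose, and in the myosin, dense body and receptor lists the share that rose did not exceed that of all genes. The thrombin receptor gene F2r (-2.25 ± 0.049) and the lysophosphatidic acid receptor gene Lpar1 (-2.30 ± 0.099) fell, and Avpr1a (2.00 ± 0.16) and Adra1b (0.69 ± 0.068), for a vasopressin and an adrenergic receptor also known from hepatocytes, rose.

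Most pericyte and myofibroblast genes also fell. Of 10 pericyte and vascular smooth muscle genes, 7 fell at P10 relative to E15.5 and 3 did not pass (median -0.76), with the potassium channel subunit genes Abcc9 (-3.16 ± 0.14) and Kcnj8 (-1.78 ± 0.21) and the growth factor receptor gene Pdgfrb (-2.65 ± 0.20) among them. Of 13 myofibroblast genes, 11 fell and 2 did not pass (median -1.63), against 18.6% of all genes called lower. At P10 relative to P5, 7 of 13 fell (median -0.93), against 2.89% of all genes. Among them were Lox (-1.19 ± 0.10), Col1a1 (-0.91 ± 0.080) and Fn1 (-1.08 ± 0.097).  These lists hold genes that stellate cells also express, and the lists and the 10 genes were measured on the same arrays.

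**Figure D5:**
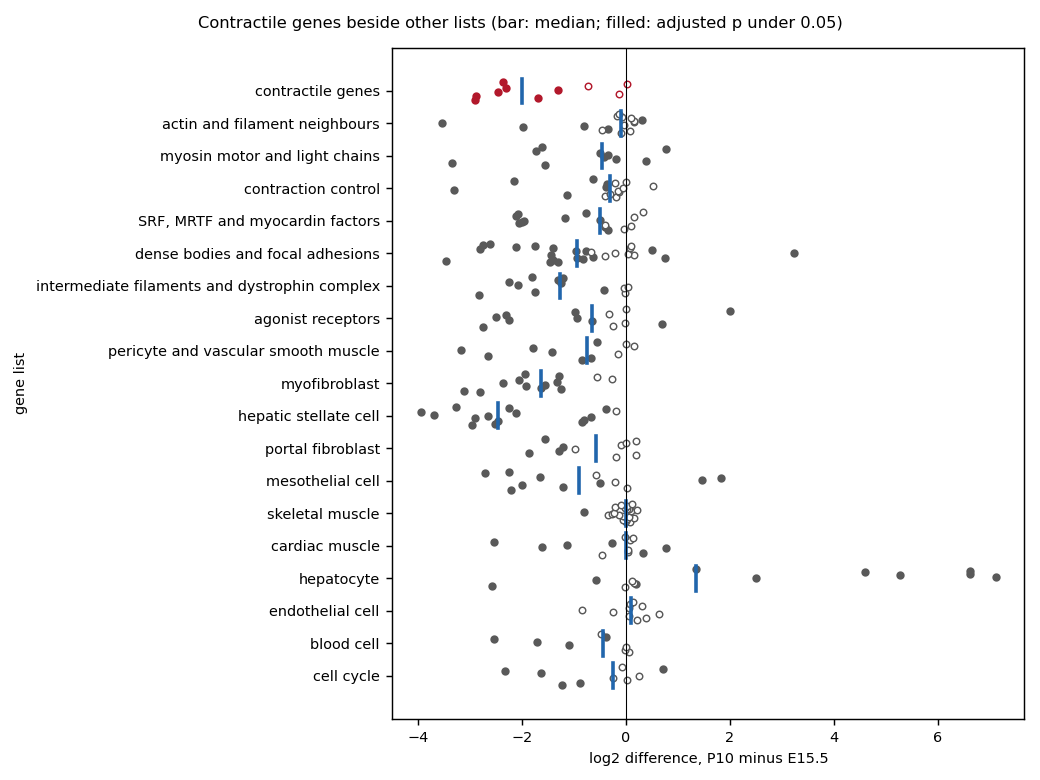
Log2 difference at P10 against E15.5 (x axis) of each measured gene by list (y axis), with blue bars for list medians and filled points for an adjusted p under 0.05. The contractile genes have a median of -1.997, between the myofibroblast (-1.63) and stellate cell (-2.47) lists, the last of which holds Des, while skeletal muscle and cardiac muscle lists have medians of 0.00.

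Of 22 skeletal muscle genes, 7 lay under percentile 30 on all 9 arrays and 13 under the median. The myosin heavy chain genes Myh1, Myh2, Myh3 and Myh8 were under percentile 30 on all arrays, while Ckm, Tnnt1, Tnnt3 and Tnni2, for creatine kinase and troponins of skeletal muscle, lay above the median on all 9. The summed signal of the 22 was 1900 to 2010 at E15.5, 1850 to 2170 at P5 and 1780 to 1980 at P10, and 1 of 22 was called at P10 against E15.5, Tnni1 (-0.80 ± 0.14). Of 12 cardiac genes, 4 fell and 2 rose at P10 relative to E15.5, against 18.6% and 20.1% of all genes. The cardiac sum was 2350 to 2520 at E15.5, 1770 to 1920 at P5 and 1220 to 1280 at P10. Tnnc1 (-2.53 ± 0.245), which encodes a troponin shared by heart and slow muscle, fell and lay between 7.14 and 10.03, above the median on every array, and Myl7, also on the myosin list, fell. Myl4, on the myosin list too, rose, and Myh6 was called higher (0.33, adjusted p = 0.015) on a probe set under percentile 30 on 8 of 9 arrays. The summed signal of 13 hepatocyte genes was 55800 to 57300 at E15.5, 80000 to 84800 at P5 and 77300 to 83500 at P10. Bright genes such as Alb, which lay between 13.03 and 13.22 on all 9 arrays, weigh most in this sum. Of these 13, 8 rose and 2 fell at P10 relative to E15.5 (median 1.34). Cyp2e1 (7.11), Tat (6.62) and Pck1 (6.625) rose with the smallest adjusted p, and Afp (-2.58) and Fga (-0.58) fell. Of 12 mesothelial genes, 7 rose and 3 fell at P5 relative to E15.5 (median 0.93), against 17.9% and 17.7% of all genes. At P10 relative to P5, 9 fell (median -1.31) and 2 of the 10 contractile genes fell, against 2.89% of all genes. The mesothelial sum was 9280 to 9560 at E15.5, 14000 to 15200 at P5 and 9930 to 10500 at P10. Even so, 7 of the 12 fell at P10 relative to E15.5 (median -0.89). The 2 that rose, Krt8 (1.47) and Krt18 (1.82), were bright and weigh heavily in the sum. Both were also among the 7 that rose at P5 relative to E15.5 (1.49 and 2.20). How far they read mesothelial cells was not tested. Of 10 portal fibroblast genes, 4 fell at P10 relative to E15.5 and 4 at P10 relative to P5 (median -0.66), against 18.6% and 2.89% of all genes. Their sum was 2940 to 3140 at E15.5, 2110 to 2950 at P5 and 1450 to 1640 at P10. Of 8 blood cell genes, 4 fell and 0 rose at P10 relative to E15.5 (median -0.43), against 18.6% and 20.1% of all genes. Slc4a1 (-1.71 ± 0.25) and Pf4 (-2.53 ± 0.40) were among those that fell. The part of these cell types in the lower signal of contractile genes was not tested.

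Genes with the closest profiles were ranked by Pearson r over the 9 arrays among 3895 other genes whose SD was at least 0.5, as a description of arrays that share their stage differences. For Acta2 these were Postn (0.992), which encodes the matrix protein periostin, Tgfb2 (0.992), a TGF-beta ligand gene, Garre1 (0.990), 4932438A13Rik (0.988) and Sgce (0.985), a sarcoglycan gene. The mean log2 signal of Postn was 12.23 in E15.5 cells, 10.59 in P5 cells and 9.43 in P10 cells. For Tagln the closest were Vegfd (0.947), Emp1 (0.933) and Ifitm1 (0.928), followed by Acta2 (0.919) and Actg2 (0.916). For Myl9 they were BC028528, Tmed3, Gab2, Clca3a1 and Lbh, from 0.992 to 0.988. Among the members themselves, r with Acta2 was 0.968 for Tpm2, 0.966 for Actg2 and 0.936 for Myl9, and 0.22 for Cnn1 and -0.05 for Lmod1.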

How the data were processed

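RNA from 9 samples of sorted mouse liver stroma, 3 per stage, was measured on Affymetrix arrays. The deposited values are log2 signals per probe set from robust multi-array averaging (RMA), per the submitters' processing notes, where Expression Console and Transcriptome Analysis Console 2.0 are listed too. RMA subtracts background and forces arrays to 1 distribution, which can understate differences of dim probe sets. The array annotation gave 1 symbol to 21789 of 35556 probe sets, several to 1621 and none to 12146. Symbols were updated by Entrez identifier from a RefSeq table. Each of 19938 genes is read from 1 single-symbol probe set, the brightest on average, with no filter and no further scaling.

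Stage was fitted to all 9 arrays with limma 3.58.1 (R 4.3.3), whose 2-sided moderated test had 6 residual degrees of freedom plus a prior of 2.22, with Benjamini-Hochberg adjustment across the 19938 genes per contrast, called at an adjusted p under 0.05. The code of the fit was checked on simulated arrays with independent noise and few changed genes. That check does not bear on how these arrays vary. Errors are SE from the model. Arrays with the same number did not deviate together (r -0.079 to 0.069 in 9 pairs), so they were not paired. The number of arrays limits the precision. Of other lists, names were taken from the 3 called genes with the smallest adjusted p per comparison and up to 2 in the other direction, not all of which are printed. Paralogs, Srf and its cofactors, and genes that bear on a cell type were named for their role. Members and lists were chosen with earlier results of these data known. Alternatives were other scalings, a filter and a floor at percentile 30, other probe set choices, another variance model, fits of 2 stages, a replicate block and omission of arrays. The contrast between the 2 steps and the omission of P5 arrays 2 and 3 were added after the values were seen. Plots used Python 3.11.15 and matplotlib 3.10.9.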

Additional observations from a re-analysis of the deposited data

How the results depend on the processing

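Of 600 member values under 20 alternatives, 160 choose among probe sets where a gene has 1 or leave out arrays outside the comparison, and bear on a value at most through its error. Of the other 440, 401 kept their side of the threshold, 20 lost a call, 19 gained one and 0 turned round where called. Among these, the filter, the floor, the other variance model, the replicate block and the fits of 2 stages also left the member differences unchanged. They too acted only through the error or the adjustment. In P10 against E15.5 the calls of Acta2, Actg2, Myl9, Des, Tpm1 and Tpm2 held in 14 alternatives (highest adjusted p 0.00376, Actg2). These 14 include the alternatives just named, which left the differences unchanged. The comparison of P10 with P5 was the least stable. Its count of genes called lower was 5 after centring on ribosomal protein genes and 5 after the filter at percentile 30, 1 with the floor at percentile 30 and 0 when only these 2 stages were fitted, against 2. Over all genes it called 709 when only these 2 stages were fitted, against 1126. Leaving out 1 array at a time gave 0 to 4 of the contractile genes and 586 to 1385 of all genes. Between P5 and E15.5, leaving out 1 array at a time gave 0 to 1 genes called higher. With P5 arrays 2 and 3 left out, an omission chosen after seeing the data, Cnn1 was 0.76 above E15.5 on the single P5 array kept. The causes were not tested.

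With the replicate block, 1 contractile gene was called lower at P10 than at P5, and Actg2 there (adjusted p = 0.0904) and Tagln at P10 against E15.5 (adjusted p = 0.0523) lost their calls, while no other call changed. Scalings moved the median of all genes by at most 0.0953, but some members moved further. At P10 against E15.5, quantile normalisation took Tpm1 from -1.31 to -1.68 and Acta2 from -2.90 to -3.17. Myh11 went the other way, from -0.74 to -0.68. After centring on all genes, 34.4% of calls at P10 against E15.5 and 36.5% at P10 against P5 were lower, against 48.2% and 51.2%.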
